A study of Mus musculus with 12 samples.

Results

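In the mouse liver, 92 genes were raised by the synthetic glucocorticoid (GC) dexamethasone (DEX) and lowered by an acute iron overload. They were picked out of 55414 counted genes, of which 12215 reached a mean of 1 CPM, the read count of a gene scaled to the size of its library, in NaCl/PBS or NaCl/DEX mice. A gene was taken when its log2 change from the control mice was at least 0.5 after DEX and -0.5 or less after iron, with all 3 NaCl/DEX mice above and all 3 FeSO4/PBS mice below all 3 NaCl/PBS mice. The genes were thus chosen by the measured values of those 9 livers, and their rise after DEX and fall after iron are given as a description, with no test. The livers of the 3 mice that received both agents entered the scaling of the CPM values, done over all 12 libraries. Their gene levels took no part in the choice.

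Bulk RNAseq was done on the livers of 12 female C57BL/6J mice in 4 groups of 3. NaCl/PBS mice received 0.9% NaCl and, after 6 h, PBS. NaCl/DEX mice received NaCl and then 10 mg/kg DEX. FeSO4/PBS mice were given 300 mg/kg FeSO4 intraperitoneally and then PBS, and FeSO4/DEX mice FeSO4 and then DEX. All livers were collected 2 h after the second injection and 8 h after the first, so the DEX changes are those of 2 h and the iron changes those of 8 h. No genetic alteration was used. Each library is 1 mouse, and whole liver was taken, so that hepatocytes, macrophages, endothelial cells and others were measured together.

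GCs act through the glucocorticoid receptor (GR), a ligand-activated transcription factor that enters the nucleus and binds response elements near its target genes. In the liver it induces enzymes of gluconeogenesis and amino acid breakdown, and in macrophages it induces genes that restrain inflammation. Free iron drives lipid peroxidation and ferroptosis, a form of cell death that hepatocytes exposed to an iron load can undergo.

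Library totals lay between 16335651 and 23827340 counts, and no library stood apart in depth. The TMM factors of edgeR, which set the scale of all CPM values here, were 1.15 to 1.16 in NaCl/PBS and 1.01 to 1.05 in NaCl/DEX mice, with 0.905 to 0.944 in FeSO4/PBS and 0.881 to 0.938 in the FeSO4/DEX mice. Hepatocyte markers such as Alb and Ttr summed to 104409 to 124011 CPM in NaCl/PBS and 122595 to 143005 in NaCl/DEX mice. The sum was 133975 to 155276 CPM in FeSO4/PBS and 153385 to 155786 in FeSO4/DEX mice, above all NaCl/PBS mice in both. The acinar pancreas markers Amy2a5, Cpa1, Ctrb1 and Prss2 had 0 counts in all libraries, but Cela1, also on the list, did not. Of 10 neutrophil markers, 3 had 0 counts in all NaCl/DEX mice, and their sum was 42.9 to 49.8 CPM in FeSO4/PBS and 31.1 to 36.9 CPM in the FeSO4/DEX mice against 7.05 to 16.2 CPM in NaCl/PBS mice. The part of these differences in the results below was not tested.

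Of the 12215 genes, 1043 met the DEX threshold and 3405 the iron threshold. Both were met by 129, and 37 of these were dropped because some mice overlapped. The 92 genes are 10.2% of the 898 genes raised by DEX under the same size and non-overlap criteria, and 2.88% of the 3192 lowered by iron. Of the genes near the thresholds, B3galt6, Bcl9l and Ap1s2 lay just inside the DEX threshold at 0.50, 0.51 and 0.52, and Crlf3 and Agtpbp1 just outside at 0.50 (below 0.5 before rounding) and 0.49. On the iron side Daam2, Gcnt1 and Zfp236 were inside at -0.51, -0.52 and -0.53, and Rnf217, Shld1 and Ppp1r3c outside at -0.49, -0.49 and -0.48. The expression floor left no gene just outside it, and the 3 lowest genes inside were Gm30938, Mcf2l and Gcnt1, with 1.15, 1.36 and 1.85 CPM in the higher control group. At a log2 threshold of 1 in place of 0.5, 22 genes were left.

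**Figure D1:**
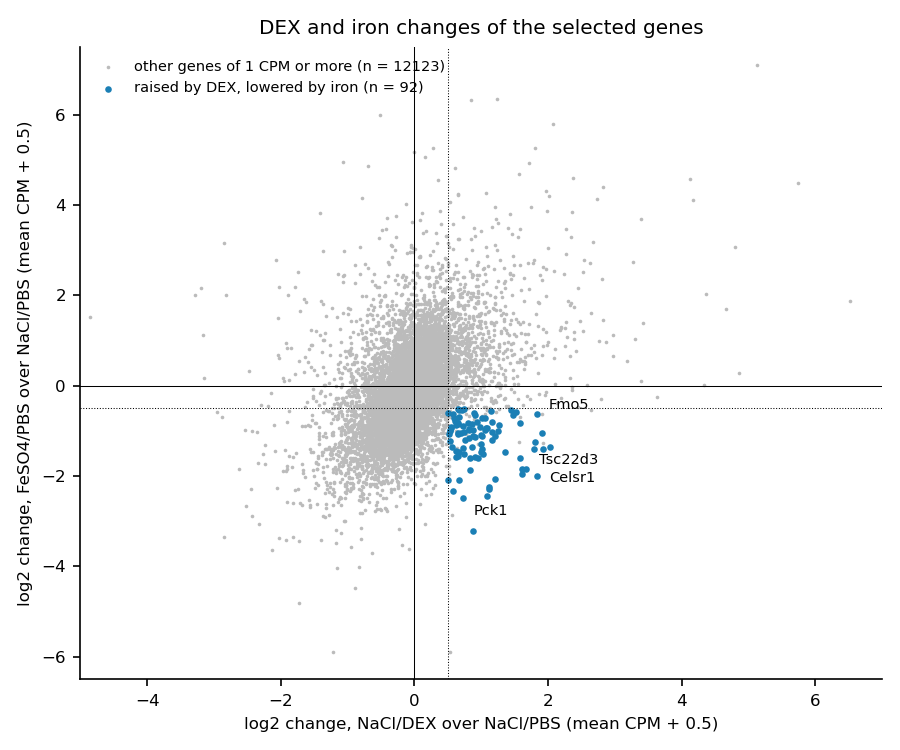
Log2 change after DEX (x axis, NaCl/DEX over NaCl/PBS) against log2 change after iron (y axis, FeSO4/PBS over NaCl/PBS) for the 12215 genes with at least 1 CPM, 1 point per gene, with 0.5 CPM added to the group means. The 92 selected genes (blue) lie at the lower right, beyond the dotted thresholds of 0.5 and -0.5, by construction, and grey points beyond both thresholds are among the 37 genes whose mice overlapped.

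Most of the 92 genes encode proteins (82), and 9 are lncRNAs. The median log2 change was 0.88 after DEX, with a range from 0.50 to 2.03, and -1.06 after iron, with a range from -0.51 to -3.21. The log2 change was -1 or less after iron in 53 of the genes and 1 or more after DEX in 35. Dact1 had the largest change after DEX and the lncRNA A930033H14Rik the largest after iron. The median level was 12 CPM in NaCl/PBS and 29.5 in NaCl/DEX mice, with 5.18 in FeSO4/PBS and 6.00 in the FeSO4/DEX mice.

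In the mice that received both agents the genes were low. Taken mouse by mouse, the median of the 92 genes on the log2 scale relative to the NaCl/PBS mean was 0.83 to 0.87 in NaCl/DEX mice and -1.31 to -1.05 in FeSO4/PBS mice, and it was -1.05, -1.11 and -0.81 in the 3 FeSO4/DEX mice. All 3 FeSO4/DEX mice were therefore far below the NaCl/PBS mice, which lay at -0.05, -0.03 and 0.05, and their range overlapped that of the FeSO4/PBS mice. FeSO4/DEX mouse 3 stood highest of its group in 47 of the 92 genes, and FeSO4/PBS mouse 1 lowest of its group in 49. The same counts over all genes are not given here. The median over genes of the mean FeSO4/DEX level against NaCl/PBS was -0.95 on the log2 scale, and -0.01 over all 13857 tested genes. Under scaling by library size without TMM factors it was -1.27, and the median of all tested genes then shifted by -0.35.

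**Figure D2:**
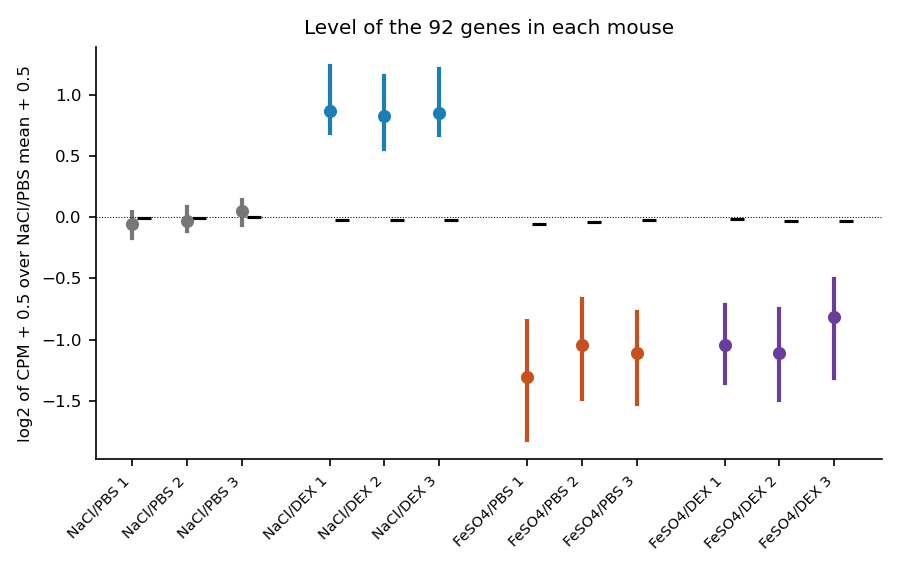
Level of the 92 genes in each of the 12 mice, as the log2 of CPM + 0.5 over the NaCl/PBS mean + 0.5 (y axis). Points are medians over the genes, bars run from the lower to the upper quartile, and black ticks give the median of all tested genes, which stays near 0 while the genes sit at 0.83 to 0.87 in NaCl/DEX mice and between -1.11 and -0.81 in FeSO4/DEX mice.

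All 3 comparisons with the FeSO4/DEX mice were tested with edgeR's quasi-likelihood test over 13857 genes, with p-values adjusted over all of them by the Benjamini-Hochberg method (edgeR FDR, called at 0.05 or less). LFC is the log2 fold change of this fit, given with its standard error (SE). All 92 genes passed the filter on low counts, which each could pass through the groups in which it was high. Against FeSO4/PBS mice, which asks whether DEX moved the genes after iron, 0 of the 92 were called higher and 0 lower, and over all tested genes the shares were 0% and 0%. At an unadjusted p under 0.05, 11 of the 92 were higher (12%) and 1 lower, beside 444 (3.2%) and 456 of all genes. Under DESeq2's Wald test 0 of the 92 were called while 5 genes were called higher and 5 lower among all. Since the FeSO4/PBS libraries were chosen to be low in these genes, this comparison leans towards a rise.

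Against NaCl/PBS mice, 79 of the 92 genes were lower and 0 higher in FeSO4/DEX mice, where 26.3% of all tested genes were lower and 26% higher. In 81 of the 92 all 3 FeSO4/DEX mice lay below all 3 NaCl/PBS mice, which held for 32.4% of all genes. The NaCl/PBS libraries also served in the choice. Against NaCl/DEX mice all 92 were lower, with 20.9% of all genes lower, and in all 92 every FeSO4/DEX mouse lay below every NaCl/DEX mouse (28% of all genes), but the NaCl/DEX libraries were chosen to be high. The median was -1.98 on the log2 scale.

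Tsc22d3 (ENSMUSG00000031431, chromosome X from 139440091 to 139501408 on the minus strand, GRCm39) encodes GILZ, a GC-induced leucine zipper protein that restrains inflammatory signaling and one of the best known direct GR targets. Its level was 50.2, 57.1 and 86.2 CPM in the NaCl/PBS and 219, 194 and 209 in the NaCl/DEX mice, with 17.5, 18.7 and 16.8 in FeSO4/PBS and 20.7, 17.8 and 23.7 in the FeSO4/DEX mice. With 0.5 CPM added to each mean, the mean was 3.20 times the control after DEX and the control 3.58 times the mean after iron. FeSO4/DEX and FeSO4/PBS mice overlapped, and the LFC between them was 0.24 (SE 0.18, edgeR FDR 0.83), with a 95% interval of -0.14 to 0.62. The same dose had given 1.68 in NaCl mice, a value fixed in part by the choice. Against NaCl/PBS mice the LFC of the FeSO4/DEX mice was -1.62 (SE 0.18, edgeR FDR 4.8e-06).

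Klf15 (ENSMUSG00000030087, chromosome 6 from 90438998 to 90452220 on the plus strand) encodes a zinc finger transcription factor that GCs induce and that governs amino acid breakdown and gluconeogenesis. The 3 mice of each group had 147, 101.4 and 168 CPM in NaCl/PBS and 232, 205 and 222 in NaCl/DEX mice, with 58.8, 99.6 and 71.5 in FeSO4/PBS and 59.8, 109 and 116 in FeSO4/DEX. The FeSO4/DEX mice spread from the FeSO4/PBS range into that of the NaCl/PBS mice. Neither their LFC against FeSO4/PBS, 0.32 (SE 0.25, edgeR FDR 0.83), nor that against NaCl/PBS, -0.54 (SE 0.25, edgeR FDR 0.083), passed the test. Leaving out FeSO4/DEX mouse 3 gave an LFC against NaCl/PBS of -0.72 (edgeR FDR 0.044) and leaving out NaCl/PBS mouse 2 one of -0.72 (edgeR FDR 0.030). The call for Klf15 was gained under 4 of 13 alternatives, these among them, with LFCs from -0.90 to -0.28 over all 13.

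The upstream sequence of 4 genes that the results turn on is shown from RefSeq (build GRCm38.p6, another build than that of the counts), namely the 250 bases before an annotated start, 5′ to 3′, with letter matches in capitals. In the Tsc22d3 window (chrX:140600523-140600772 on the minus strand) the capitals mark the GR half-site TGTTCT, 185 bases before the start. In the Klf15 window (chr6:90462326-90462575 on the plus strand) they mark the E-box CACGTG, the letters bound by clock proteins and other bHLH factors, 228 and 172 bases before the start.
Tsc22d3: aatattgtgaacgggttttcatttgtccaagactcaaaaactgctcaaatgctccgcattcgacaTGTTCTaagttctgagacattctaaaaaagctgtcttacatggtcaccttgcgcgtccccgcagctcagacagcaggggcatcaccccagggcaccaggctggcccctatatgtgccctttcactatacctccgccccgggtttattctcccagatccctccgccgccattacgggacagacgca
Klf15: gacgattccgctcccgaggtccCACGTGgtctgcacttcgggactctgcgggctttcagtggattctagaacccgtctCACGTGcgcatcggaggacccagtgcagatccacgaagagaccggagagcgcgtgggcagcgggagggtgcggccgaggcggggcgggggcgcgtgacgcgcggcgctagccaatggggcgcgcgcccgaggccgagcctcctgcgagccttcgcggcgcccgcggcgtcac

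For the GR list as a whole the pattern of Tsc22d3 was the exception. Of 20 classic GR target genes tested, 16 were higher and 0 lower after DEX (6.5% and 7.15% of all genes), and 18 were higher and 1 lower after iron (27.2% and 27.3% of all genes). Both changes were upward in 15 of them, and Tsc22d3 was the gene of the list that rose after DEX and was lower after iron. Here and in the lists below, the counts after DEX and after iron include the members on the list, whose entries restate how they were chosen and are no test of them. Fkbp5, a co-chaperone of the receptor, rose from 109 to 518 CPM after DEX and to 201 CPM after iron. Sgk1, a kinase of ion transport, rose from 23.6 to 108 CPM after DEX and to 56.1 CPM after iron. Tat, a tyrosine-degrading enzyme, rose from 1001 to 4722 and to 5562 CPM. The edgeR FDRs of these 3 genes were 1.4e-04, 2.8e-05 and 5.3e-06 after DEX and 0.016, 3.9e-04 and 2.5e-07 after iron. Both contrasts share the NaCl/PBS mice. Scaled by library size alone, 15 of the list were higher after DEX, and 16 higher and 1 lower after iron.

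**Figure D3:**
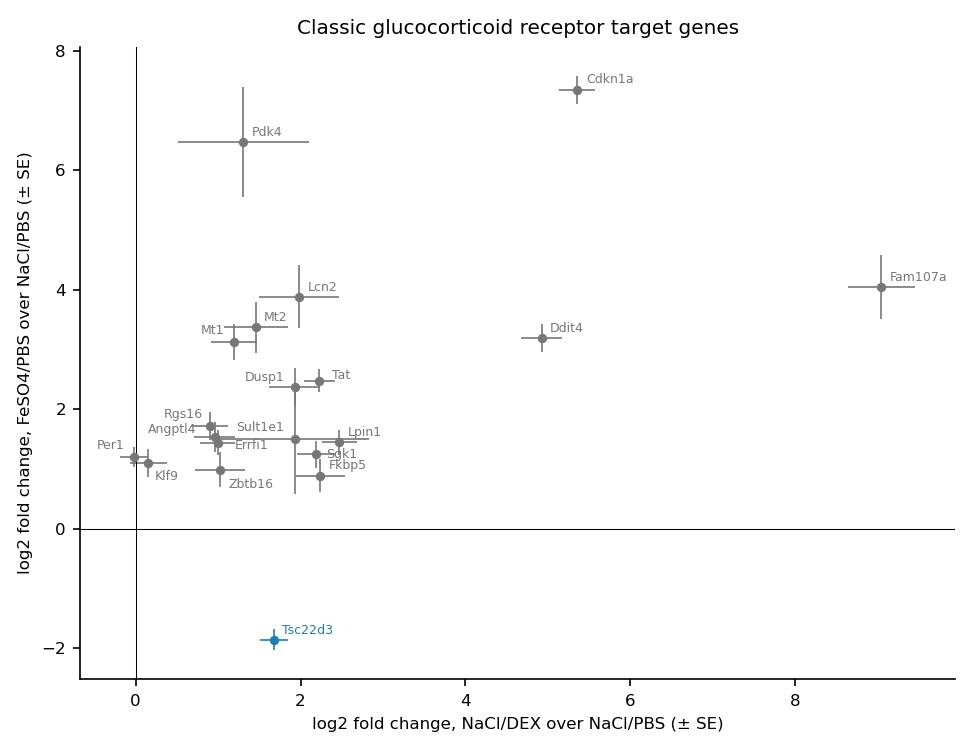
LFC after DEX (x axis, NaCl/DEX over NaCl/PBS) against LFC after iron (y axis, FeSO4/PBS over NaCl/PBS) of 20 classic GR target genes, with bars of 1 standard error from edgeR. Tsc22d3 (blue), at 1.68 after DEX, is the point below the horizontal line, and the other 19 lie above it.

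Genes of intermediary metabolism hold the most abundant members. Per kilobase of exon, the level in NaCl/PBS mice was 633 CPM for Pck1, 137 for Saa4, 83.9 for Fmo5 and 83 for Dgat2. Pck1 (ENSMUSG00000027513, chromosome 2 from 172994744 to 173001066 on the plus strand) encodes the cytosolic phosphoenolpyruvate carboxykinase, the enzyme that commits carbon to gluconeogenesis. It had 2197, 2422 and 2412 CPM in NaCl/PBS and 3740.4, 4017 and 3861 in NaCl/DEX mice, with 169, 747 and 331 in FeSO4/PBS and 349, 738 and 637 in the FeSO4/DEX mice. The iron groups overlapped each other, and both lay far below all NaCl mice. The LFC of FeSO4/DEX mice was 0.48 (SE 0.39, edgeR FDR 0.83) against FeSO4/PBS and -2.01 (SE 0.40, edgeR FDR 8.0e-04) against NaCl/PBS mice. The former LFC was 0.08 (edgeR FDR 0.98) without FeSO4/PBS mouse 1, 1.22 (0.19) without FeSO4/PBS mouse 2, 0.75 (0.73) without FeSO4/DEX mouse 1 and 0.24 (0.93) without FeSO4/DEX mouse 2.

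The Pck1 window (chr2:173152823-173153072 on the plus strand) holds in capitals the letters TTACGTCA, a match to the cAMP response element TGACGTNA on the other strand, 93 bases before the start.
Pck1: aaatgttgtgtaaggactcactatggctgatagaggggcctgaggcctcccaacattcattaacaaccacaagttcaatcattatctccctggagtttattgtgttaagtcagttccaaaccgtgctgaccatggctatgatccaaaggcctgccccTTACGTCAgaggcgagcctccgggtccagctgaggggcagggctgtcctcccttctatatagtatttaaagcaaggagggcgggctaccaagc

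Among 16 tested genes of gluconeogenesis and its regulators, 5 were higher and 1 lower after DEX and 6 higher and 3 lower after iron. G6pc1, the glucose 6-phosphatase that ends the pathway, had 137, 68.4 and 233 CPM in NaCl/PBS, NaCl/DEX and FeSO4/PBS mice (edgeR FDR 0.15 after DEX and 0.14 after iron). In amino acid breakdown, where 8 of 30 tested genes were higher and 1 lower after DEX and 12 higher and 4 lower after iron, the member was Kyat1, a kynurenine aminotransferase. Kyat1 had 114, 104 and 130.4 CPM in NaCl/PBS and 153, 166 and 205 in NaCl/DEX mice, with 61.7, 92.4 and 58 in FeSO4/PBS and 74.3, 87 and 82.8 in the FeSO4/DEX mice. Its FeSO4/DEX level was below that of all NaCl/PBS mice, at an LFC of -0.50 (SE 0.17, edgeR FDR 0.023), a call lost without FeSO4/DEX mouse 1 (edgeR FDR 0.085) or NaCl/PBS mouse 3 (edgeR FDR 0.087).

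Of 27 cholesterol and lipoprotein genes tested, 4 were higher and 2 lower after DEX, and 6 were higher and 13 lower after iron. With library size alone these counts became 1 and 2 after DEX and 3 and 18 after iron. Enzymes of the pathway that are not members were lower after iron while DEX left them uncalled, such as Lss with 125, 117 and 38.6 CPM and Sqle with 186, 229.7 and 97.4 CPM in NaCl/PBS, NaCl/DEX and FeSO4/PBS mice (edgeR FDR after iron 2.0e-05 and 0.0024).

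In lipid handling, Dgat2, which makes triglycerides, had 502, 467 and 533 CPM in NaCl/PBS and 858, 584 and 805 in NaCl/DEX mice, with 306, 351 and 321 in FeSO4/PBS and 367, 299 and 414 in the FeSO4/DEX mice. The FeSO4/DEX mice were lower than NaCl/PBS mice by an LFC of -0.46 (SE 0.15, edgeR FDR 0.021), which was not called without FeSO4/DEX mouse 2 (edgeR FDR 0.081) or NaCl/PBS mouse 3 (0.064). Of the 26 fatty acid and triglyceride genes tested, 7 were higher and 2 lower after DEX and 14 higher and 3 lower after iron. Lipg, an endothelial lipase of HDL phospholipids, had 18.3, 19.4 and 22.6 CPM in NaCl/PBS and 36.4, 54.5 and 50.5 in NaCl/DEX mice, with 2.82, 6.16 and 4.34 in FeSO4/PBS and 4.12, 3.53 and 6.54 in the FeSO4/DEX mice. Its 3 FeSO4/DEX mice were all far under the control, with an LFC of -2.07 (SE 0.26, edgeR FDR 2.0e-05). Gba2, a glucosylceramidase outside the lysosome, went from a mean of 11.8 to 17.7 CPM after DEX, 1.95 after iron and 2.76 after both.

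Fmo5 (ENSMUSG00000028088, chromosome 3 from 97531564 to 97562598 on the plus strand), a flavin monooxygenase of the hepatocyte and 1 of the 5 most abundant members in NaCl/DEX mice, stood at 511, 642 and 506 CPM in NaCl/PBS and 2149, 1725 and 2017 in NaCl/DEX mice, with 361, 451 and 266 in FeSO4/PBS and 305, 340.2 and 399 in the FeSO4/DEX mice. The NaCl/DEX mean was 3.55 times the control, and between the iron-treated groups the LFC was -0.04 (SE 0.18, edgeR FDR 0.98) with an interval of -0.43 to 0.36. Its paralog Fmo2 had mean levels of 45.1, 69.6, 14.7 and 18.3 CPM in the same order of groups. Saa4, a constitutive serum amyloid A carried on HDL, had 346, 568 and 373 CPM in NaCl/PBS and 848, 759 and 676 in NaCl/DEX mice, with 158, 98.5 and 93 in FeSO4/PBS and 110.4, 106 and 122 in the FeSO4/DEX mice, although reads of Saa4 may be hard to tell from those of the other Saa genes. Its acute-phase relatives Saa1 and Saa2 were higher after iron, with 526 and 351 CPM in NaCl/PBS and 2233 and 2222 CPM in FeSO4/PBS mice (edgeR FDR 0.030 and 0.030). Of the 27 acute-phase genes tested, 6 were higher and 1 lower after DEX and 17 higher and 3 lower after iron.

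Other members of this kind were Hpgd, which inactivates prostaglandins, with means of 127, 201, 77.7 and 84.3 CPM in NaCl/PBS, NaCl/DEX, FeSO4/PBS and FeSO4/DEX mice. Aifm2, whose product FSP1 protects membranes against lipid peroxidation, had 51.4, 48.5 and 49.4 CPM in NaCl/DEX and 12.4, 11.9 and 12.4 in FeSO4/DEX mice. The nucleoside transporter gene Slc29a1 had 214, 316, 83.6 and 102 CPM at the mean of the same groups. Each of the 3 was lower in FeSO4/DEX than in NaCl/PBS mice (edgeR FDR 0.019, 1.0e-06 and 1.6e-05).

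**Figure D4:**
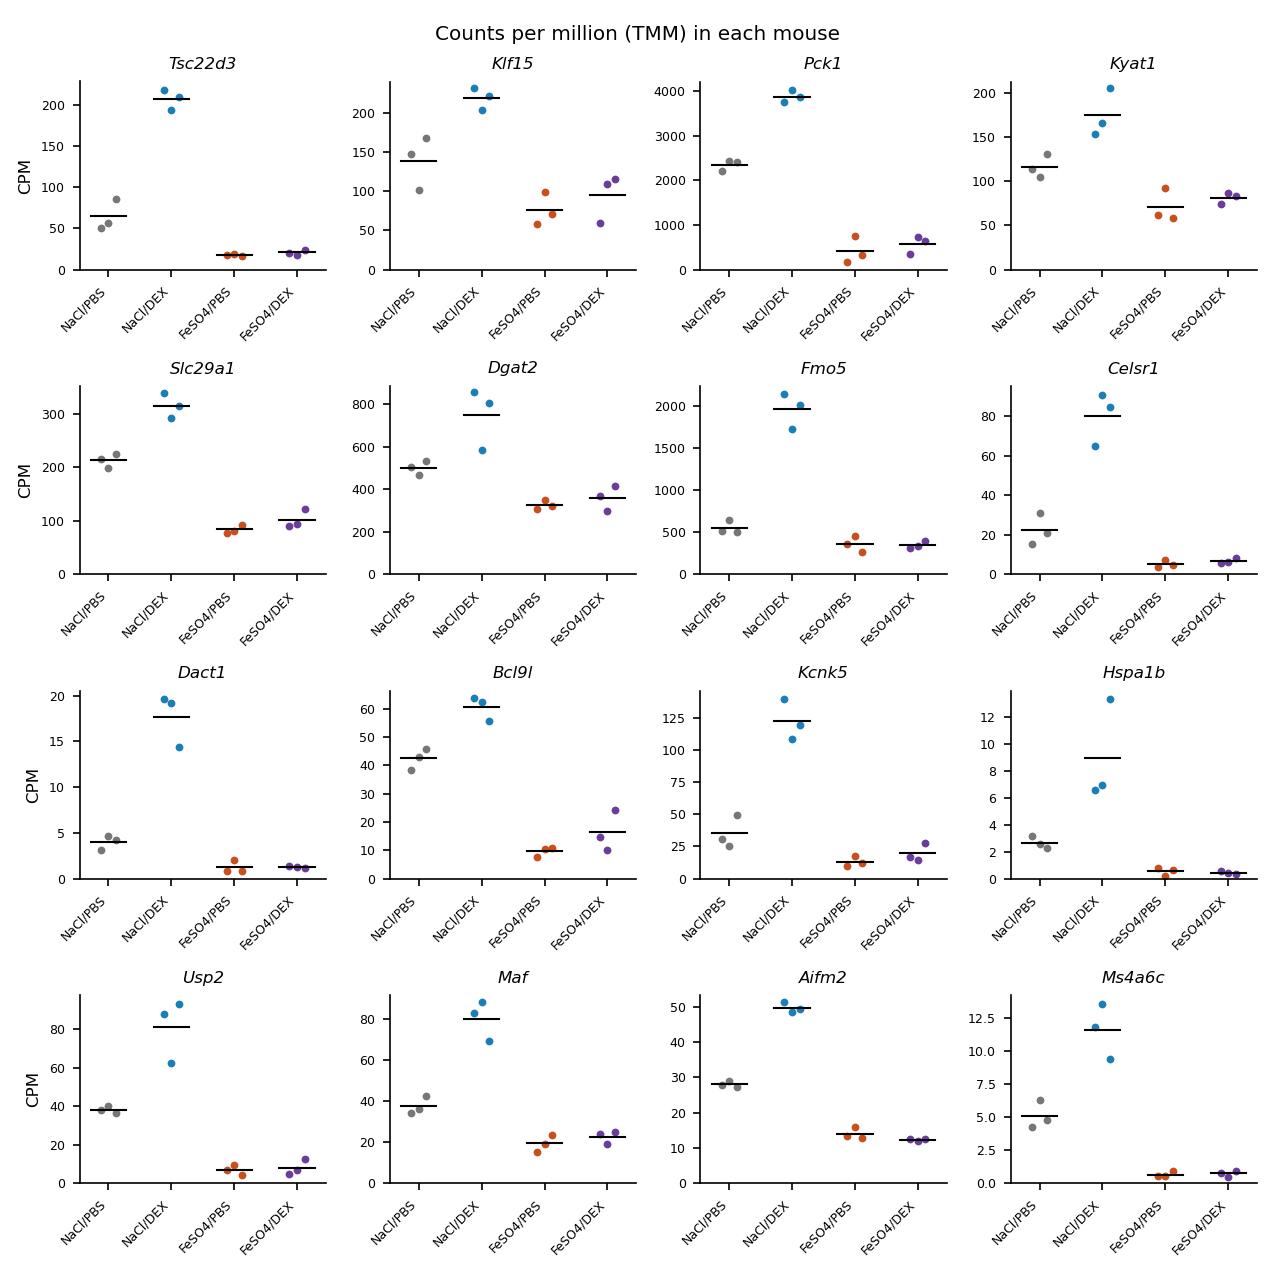
CPM (y axis, linear from 0) of 16 of the genes in each mouse of the 4 groups (x axis), with a line at the group mean. In every panel the NaCl/DEX mice are highest and both iron groups are low, and Klf15 and Kcnk5 are the panels in which FeSO4/DEX mice reach into the NaCl/PBS range.

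Cell polarity and Wnt signaling were represented by Celsr1, Dact1, Bcl9l and Daam2. Celsr1 (ENSMUSG00000016028, chromosome 15 from 85783126 to 85918438 on the minus strand), a cadherin of planar cell polarity, had the largest change when the smaller of its DEX and iron changes was taken as the measure. It had 15.1, 30.8 and 20.6 CPM in NaCl/PBS and 64.9, 91.1 and 85 in NaCl/DEX mice, with 3.68, 7.23 and 4.54 in FeSO4/PBS and 5.59, 6.31 and 8.37 in the FeSO4/DEX mice. With 0.5 CPM added to each mean, the NaCl/DEX mean was 3.57 times the control and the control 4.01 times the FeSO4/PBS mean. The FeSO4/DEX mice were lower than the control with an LFC of -1.70 (SE 0.28, edgeR FDR 1.7e-04). Dact1, which binds dishevelled, had 3.12, 4.60 and 4.17 CPM in NaCl/PBS and 19.6, 19.2 and 14.3 in NaCl/DEX mice, with 0.856, 2.00 and 0.843 in FeSO4/PBS and 1.37, 1.29 and 1.18 in the FeSO4/DEX mice. After iron its LFC for DEX was 0.05 (95% interval -0.68 to 0.77). On the log2 scale of group means the DEX change was 0.04 after iron and 2.03 in NaCl mice. The latter value was fixed in part by the choice and is the largest of the 92.

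Bcl9l, a beta-catenin cofactor, was near the DEX threshold, with 38.5, 43 and 45.9 CPM in NaCl/PBS and 63.7, 62.5 and 55.6 in NaCl/DEX mice, with 7.70, 10.3 and 10.8 in FeSO4/PBS and 14.7, 10.2 and 24 in the FeSO4/DEX mice. FeSO4/DEX mouse 3 was the highest of the iron-treated mice. Daam2, a formin that also binds dishevelled, had 3.30, 3.52 and 3.27 CPM in NaCl/PBS and 5.74, 5.87 and 5.10 in NaCl/DEX mice. After iron it was at 2.11, 2.21 and 2.33 CPM with PBS and 2.80, 3.12 and 3.42 with DEX. Its FeSO4/DEX mice were above all FeSO4/PBS mice and overlapped the NaCl/PBS mice, and the LFC against the latter was -0.10 (SE 0.18, edgeR FDR 0.67).

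Among channels and transporters, Kcnk5 (a tandem-pore potassium channel, ENSMUSG00000023243, chromosome 14 from 20190125 to 20231900 on the minus strand) had 31, 25.1 and 49.8 CPM in NaCl/PBS and 139.9, 108 and 119.9 in NaCl/DEX mice, with 9.47, 17.3 and 12.3 in FeSO4/PBS and 17, 14.7 and 28 in the FeSO4/DEX mice. FeSO4/DEX mouse 3 lay within the NaCl/PBS range. The LFC against NaCl/PBS was -0.81 (SE 0.28, edgeR FDR 0.025), and the call was lost without FeSO4/DEX mouse 1 (edgeR FDR 0.090), FeSO4/DEX mouse 2 (0.092) or NaCl/PBS mouse 3 (0.15). The inward rectifier Kcnj16 and the myo-inositol transporter Slc5a3 were scarce, with NaCl/DEX means of 3.96 and 6.90 CPM, and were at 0.437 and 1.61 CPM in FeSO4/DEX mice. The sulfate transporter Slc26a2 had means of 8.48, 15.2, 3.54 and 3.41 CPM in the 4 groups.

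Kinases and regulators of small GTPases form a further set. Tesk2, a kinase of the actin cytoskeleton, had 11.3, 11.5 and 12.2 CPM in NaCl/PBS and 35.9, 35 and 54.9 in NaCl/DEX mice, with 4.78, 4.87 and 4.15 in FeSO4/PBS and 4.81, 5.36 and 4.54 in the FeSO4/DEX mice, NaCl/DEX mouse 3 being the highest. The iron groups overlapped, with a 95% interval of -0.31 to 0.49 around their LFC of 0.09. Syde2, a GTPase-activating protein, went from 7.70 to 20.5 CPM after DEX and to 2.47 after iron, with 2.10 CPM after both. Agap2, an Arf GTPase-activating protein, had 2.03, 5.32, 0.674 and 0.584 CPM. Map2k6, the kinase that activates p38, had 11, 7.42 and 9.02 CPM in NaCl/PBS and 23.1, 17.4 and 16.4 in NaCl/DEX mice, with 1.41, 5.49 and 2.53 in FeSO4/PBS and 4.12, 4.27 and 8.19 in the FeSO4/DEX mice. The Map2k6 difference from NaCl/PBS was not called, with an LFC of -0.72 (SE 0.36, edgeR FDR 0.11), but was -1.13 (edgeR FDR 0.030) without FeSO4/DEX mouse 3.

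Protein homeostasis was represented by Hspa1b, Chordc1, Usp2 and Capn10. Hspa1b (ENSMUSG00000090877, chromosome 17 from 35175412 to 35178214 on the minus strand), an inducible chaperone gene of the Hsp70 family, had 3.16, 2.54 and 2.28 CPM in NaCl/PBS and 6.56, 6.92 and 13.3 in NaCl/DEX mice, with 0.806, 0.154 and 0.648 in FeSO4/PBS and 0.540, 0.407 and 0.354 in the FeSO4/DEX mice. NaCl/DEX mouse 3 was the highest mouse, and reads of Hspa1b may be hard to tell from those of its near-identical neighbor Hspa1a. The co-chaperone gene Chordc1 had means of 31.7, 52.6, 17 and 18 CPM in the 4 groups. In FeSO4/DEX mice both were lower than in NaCl/PBS mice (LFC -2.57 and -0.80, edgeR FDR 3.2e-04 and 2.1e-04).

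The Hspa1b window (chr17:34959239-34959488 on the minus strand) has in capitals a match to GAANNTTC, the inverted pair of units of the heat shock element, 104 bases before the start.
Hspa1b: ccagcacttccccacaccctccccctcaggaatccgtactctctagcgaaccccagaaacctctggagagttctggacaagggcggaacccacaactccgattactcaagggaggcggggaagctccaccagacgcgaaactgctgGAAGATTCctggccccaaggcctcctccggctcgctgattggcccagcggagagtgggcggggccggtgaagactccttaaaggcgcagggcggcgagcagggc

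The deubiquitinase gene Usp2, whose transcript follows the circadian cycle in the liver, had 38, 40.3 and 36.3 CPM in NaCl/PBS and 87.9, 62.4 and 93.5 in NaCl/DEX mice, with 6.60, 9.24 and 4.15 in FeSO4/PBS and 4.91, 6.65 and 12.7 in the FeSO4/DEX mice. Its log2 change after iron was -2.43. Both iron groups lay below all NaCl mice, and the LFC of FeSO4/DEX against NaCl/PBS was -2.23 (SE 0.31, edgeR FDR 4.1e-05). None of the 19 circadian clock genes tested was a member, and of these 2 were higher and 6 lower after DEX and 7 higher and 7 lower after iron. Capn10, a calpain protease gene, had 27.3, 54.8, 9.46 and 11.8 CPM. Adaptors and ligases of the ubiquitin system followed, with Klhl25, Kbtbd8, Rnf169 and Dcun1d3 at 29.2, 3.43, 99.2 and 25.9 CPM in NaCl/DEX and 10.5, 0.261, 40.4 and 6.15 CPM in FeSO4/DEX mice.

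Several genes known from macrophages and dendritic cells belong to the 92. Maf, a leucine zipper transcription factor expressed in macrophages, had 34.1, 35.9 and 42.3 CPM in NaCl/PBS and 83.1, 88 and 69.3 in NaCl/DEX mice, with 15.3, 19.1 and 23.5 in FeSO4/PBS and 23.7, 19.3 and 24.9 in the FeSO4/DEX mice, with an LFC against NaCl/PBS of -0.71 (SE 0.16, edgeR FDR 0.0018).

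Ms4a6c and Ms4a6b, genes of 4-pass membrane proteins on immune cells, lie 31672 bp apart on chromosome 19. Ms4a6c had 4.21, 6.29 and 4.81 CPM in NaCl/PBS and 11.8, 13.6 and 9.43 in NaCl/DEX mice, with 0.503, 0.513 and 0.908 in FeSO4/PBS and 0.785, 0.475 and 0.943 in the FeSO4/DEX mice. Ms4a6b had 2.93, 7.76, 1.37 and 0.899 CPM on average, and reads of the paralogs may be hard to tell apart. Tlr7 and Tlr8, endosomal sensors of single-stranded RNA, are 39433 bp apart on chromosome X. Their means were 2.89 and 2.37 CPM in NaCl/PBS and 5.73 and 3.98 in NaCl/DEX mice, with 1.06 and 1.12 in FeSO4/PBS and 0.808 and 1.73 in the FeSO4/DEX mice. Tlr7 was lower than NaCl/PBS in FeSO4/DEX mice (LFC -1.80, edgeR FDR 1.3e-04), and Tlr8 was not called (LFC -0.44, edgeR FDR 0.23). The dendritic cell lectin Clec9a and the RANK gene Tnfrsf11a were at 2.61 and 1.83 CPM in NaCl/PBS and 0.525 and 0.849 in FeSO4/DEX mice.

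Kupffer cell and macrophage markers were lower after iron together with these genes, and none was called after DEX. The 10 markers, all detected, summed to 538 to 609 CPM in NaCl/PBS and 497 to 564 in NaCl/DEX mice, with 312 to 363 in FeSO4/PBS and 268 to 421 in the FeSO4/DEX mice. After iron 9 of the 10 were lower and 0 higher, with a median LFC of -0.75, and after DEX 0 were called either way. Their part in the fall of the macrophage genes was not tested, and in bulk liver fewer cells of a type cannot be told apart from less RNA per cell. Ehd3, Kank3 and Cavin2, genes often seen in endothelium, had means of 72.3, 5.69 and 24.4 CPM in NaCl/PBS, 106, 9.55 and 39.3 in NaCl/DEX and 38.1, 2.50 and 8.43 in FeSO4/PBS mice. The summed endothelial markers overlapped among all groups, at 419 to 482, 381 to 459, 378 to 495 and 298 to 555 CPM.

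RNA and nucleus-related members included Tent5c, a cytoplasmic poly(A) polymerase gene, with 15.8, 12.3 and 15.2 CPM in NaCl/PBS and 46.1, 40.3 and 48.8 in NaCl/DEX mice, with 2.01, 3.95 and 4.08 in FeSO4/PBS and 3.78, 4.21 and 8.13 in the FeSO4/DEX mice. FeSO4/DEX mouse 3 stood above its group mates in this gene. Cpap, needed for centriole growth, had means of 5.87, 19, 1.28 and 1.89 CPM, and the replication factor gene Mcm10 24.9, 36.4, 12.1 and 14.3 CPM. The zinc finger genes Zfp292, Zfp750 and Zfp236 stood at 53.6, 16.4 and 35.6 CPM in NaCl/DEX and 9.88, 2.65 and 17 CPM in FeSO4/DEX mice. The glycosyltransferase genes Gcnt4, Gcnt1 and B3galt6 stood at 22, 1.85 and 3.46 CPM in NaCl/DEX and 5.12, 0.286 and 1.58 CPM in FeSO4/DEX mice.

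mt-Nd6, a complex I subunit gene on the mitochondrial genome, had 31.4, 26.2 and 33.6 CPM in NaCl/PBS and 51.1, 42.8 and 51.7 in NaCl/DEX mice, with 21.7, 22 and 18.3 in FeSO4/PBS and 13.3, 20.3 and 19.7 in the FeSO4/DEX mice. It is encoded on the strand opposite to mt-Nd5, which it overlaps by 14 bp. In all, 61 of the 92 genes are overlapped by an annotated gene on the other strand and 23 by one on the same strand, with no count over all genes beside them. The libraries were stranded, but the strand setting of the counting is not given in the sources used here, so reads of such partners may be mixed. Gm45540 lies inside Hpgd on the same strand, and Gm2415 overlaps Ctdspl by 42 bp on the other strand, so that these pairs of members are not separate evidence. The genes lay on 21 chromosomes, the mitochondrial one included, with at most 8 on any.

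In all, 4 genes had 3 counts or fewer in every FeSO4/PBS mouse, and for them a fall can only be bounded. Against a floor of 3 counts per library, the NaCl/PBS mean was at least 5.14-fold higher for F730311O21Rik, at least 7.40-fold higher for Ccdc8, at least 3.32-fold higher for Gm30938 and at least 2.07-fold higher for Mcf2l. Other lncRNAs were better covered. A930033H14Rik had 7.30, 6.53 and 6.23 CPM in NaCl/PBS and 11.7, 13.7 and 12.7 in NaCl/DEX mice, with 0.252, 0.513 and 0.0648 in FeSO4/PBS and 0.491, 0.271 and 0.530 in the FeSO4/DEX mice. Gm15889 had 3.21, 13.6, 0.894 and 1.27 CPM on average, and Gm16573 had 10.8, 23, 5.20 and 6.89 CPM.

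Narf, an interactor of prelamin A, had 65.8 and 197 CPM in the NaCl groups and 36.7 and 35.9 CPM in the iron groups, in the order PBS and DEX. In that order Trp53inp2, which acts in autophagy, had 251 and 386, then 145 and 147 CPM. Raph1, an actin regulator, had 91.9 and 134, then 47.4 and 44.5 CPM. The adenylyl cyclase gene Adcy9, the kinase gene Rps6ka2, the cytochrome oxidase assembly gene Coa6 and Gskip, which binds the kinase GSK3, stood at 43, 3.04, 31.4 and 12.6 CPM in NaCl/DEX and 10.5, 0.601, 10.8 and 2.27 CPM in FeSO4/DEX mice. N4bp2l1, Nabp1, Plekhf1, Dpy19l4, Xkr9 and S100pbp went from 99.5, 31.1, 11.3, 29.7, 35 and 32 CPM in NaCl/DEX to 16.5, 10.7, 2.49, 10.2, 7.28 and 10.5 CPM in FeSO4/DEX mice. The loci Gm14403, Gm49668, Gm30784, Gm5431 and 2310040G24Rik had 24.6, 8.07, 6.52, 3.14 and 3.42 CPM in NaCl/DEX and 5.84, 1.61, 1.73, 0.459 and 0.742 CPM in FeSO4/DEX mice. Reads of Gm14403 and Gm5431 may be hard to tell from those of paralogs.

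Seen gene by gene, the fitted difference between FeSO4/DEX and FeSO4/PBS mice was above 0 in 64 of the 92 genes and below 0 in 28. The median fitted difference over all tested genes was 0.005. On the log2 scale of group means the median was 0.19, beside -0.004 over all tested genes. The FeSO4/PBS mice were chosen to be low in these genes, which by itself leans the differences towards a rise. The DEX change of the same genes in NaCl mice had been 0.88 at the median, by choice. In 6 genes all FeSO4/DEX mice lay above all FeSO4/PBS mice (4.07% of all genes), namely Cpap, Spata2l, Keg1, Mcf2l, Atosa and Daam2. In another 4 they lay below (5.02% of all genes), namely Kbtbd8, Tmem41a, Aifm2 and Gcnt1. The shares of the 92 were 6.52% and 4.35%.

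Atosa had the smallest p of the 92 in this comparison. Its mice had 44.7, 45.6 and 54.9 CPM in FeSO4/PBS and 63.1, 67.1 and 109.9 in FeSO4/DEX, beside 107, 113 and 122 in NaCl/PBS and 184, 168 and 145 in NaCl/DEX mice, and the LFC was 0.74 (SE 0.19, edgeR FDR 0.70), with an interval of 0.34 to 1.14. FeSO4/DEX mouse 3 was far above the other iron-treated mice. Keg1, a gene of the glycine N-acyltransferase family whose reads may be hard to tell from those of its relatives, had 11.4, 18 and 12 CPM in FeSO4/PBS and 25.1, 19.1 and 27 in FeSO4/DEX, an LFC of 0.79 (SE 0.24, edgeR FDR 0.70). Spata2l had 5.79, 6.62 and 6.48 CPM in FeSO4/PBS and 7.66, 7.73 and 17.9 in FeSO4/DEX, an LFC of 0.83 (SE 0.31, edgeR FDR 0.73), and Bcl9l had an LFC of 0.78 (SE 0.24, edgeR FDR 0.71). When FeSO4/DEX mouse 3 was left out, the LFC was 0.28 for Spata2l, 0.37 for Bcl9l and 0.42 for Atosa. None of these passed the adjusted threshold. Without a filter on low counts, 7 of the 92 were called higher (Atosa, Keg1, Bcl9l, Spata2l, Kcnk5, Ccdc141 and Map2k6), where 0.396% of 25013 genes were called higher, so this count depends on which genes enter the fit.

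At the other end, Kbtbd8 had the lowest LFC, -1.01 (SE 0.42, edgeR FDR 0.76). It had 0.655, 0.410 and 0.584 CPM in FeSO4/PBS and 0.294, 0.136 and 0.354 in the FeSO4/DEX mice. Gcnt1, also scarce, had -0.72 (SE 0.46, edgeR FDR 0.81). Among members with at least 5 CPM in NaCl/DEX mice, low ones were Ms4a6b with an LFC of -0.61 (SE 0.29, edgeR FDR 0.76), Tlr7 with -0.37 (SE 0.31, edgeR FDR 0.85) and Tmem41a with -0.31 (SE 0.29, edgeR FDR 0.86). Zfp750 and Tm6sf1, also above that level, had LFCs of -0.42 and -0.28. None of these passed the adjusted threshold, and Kbtbd8 was at 1 CPM or less in every iron-treated mouse.

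**Figure D5:**
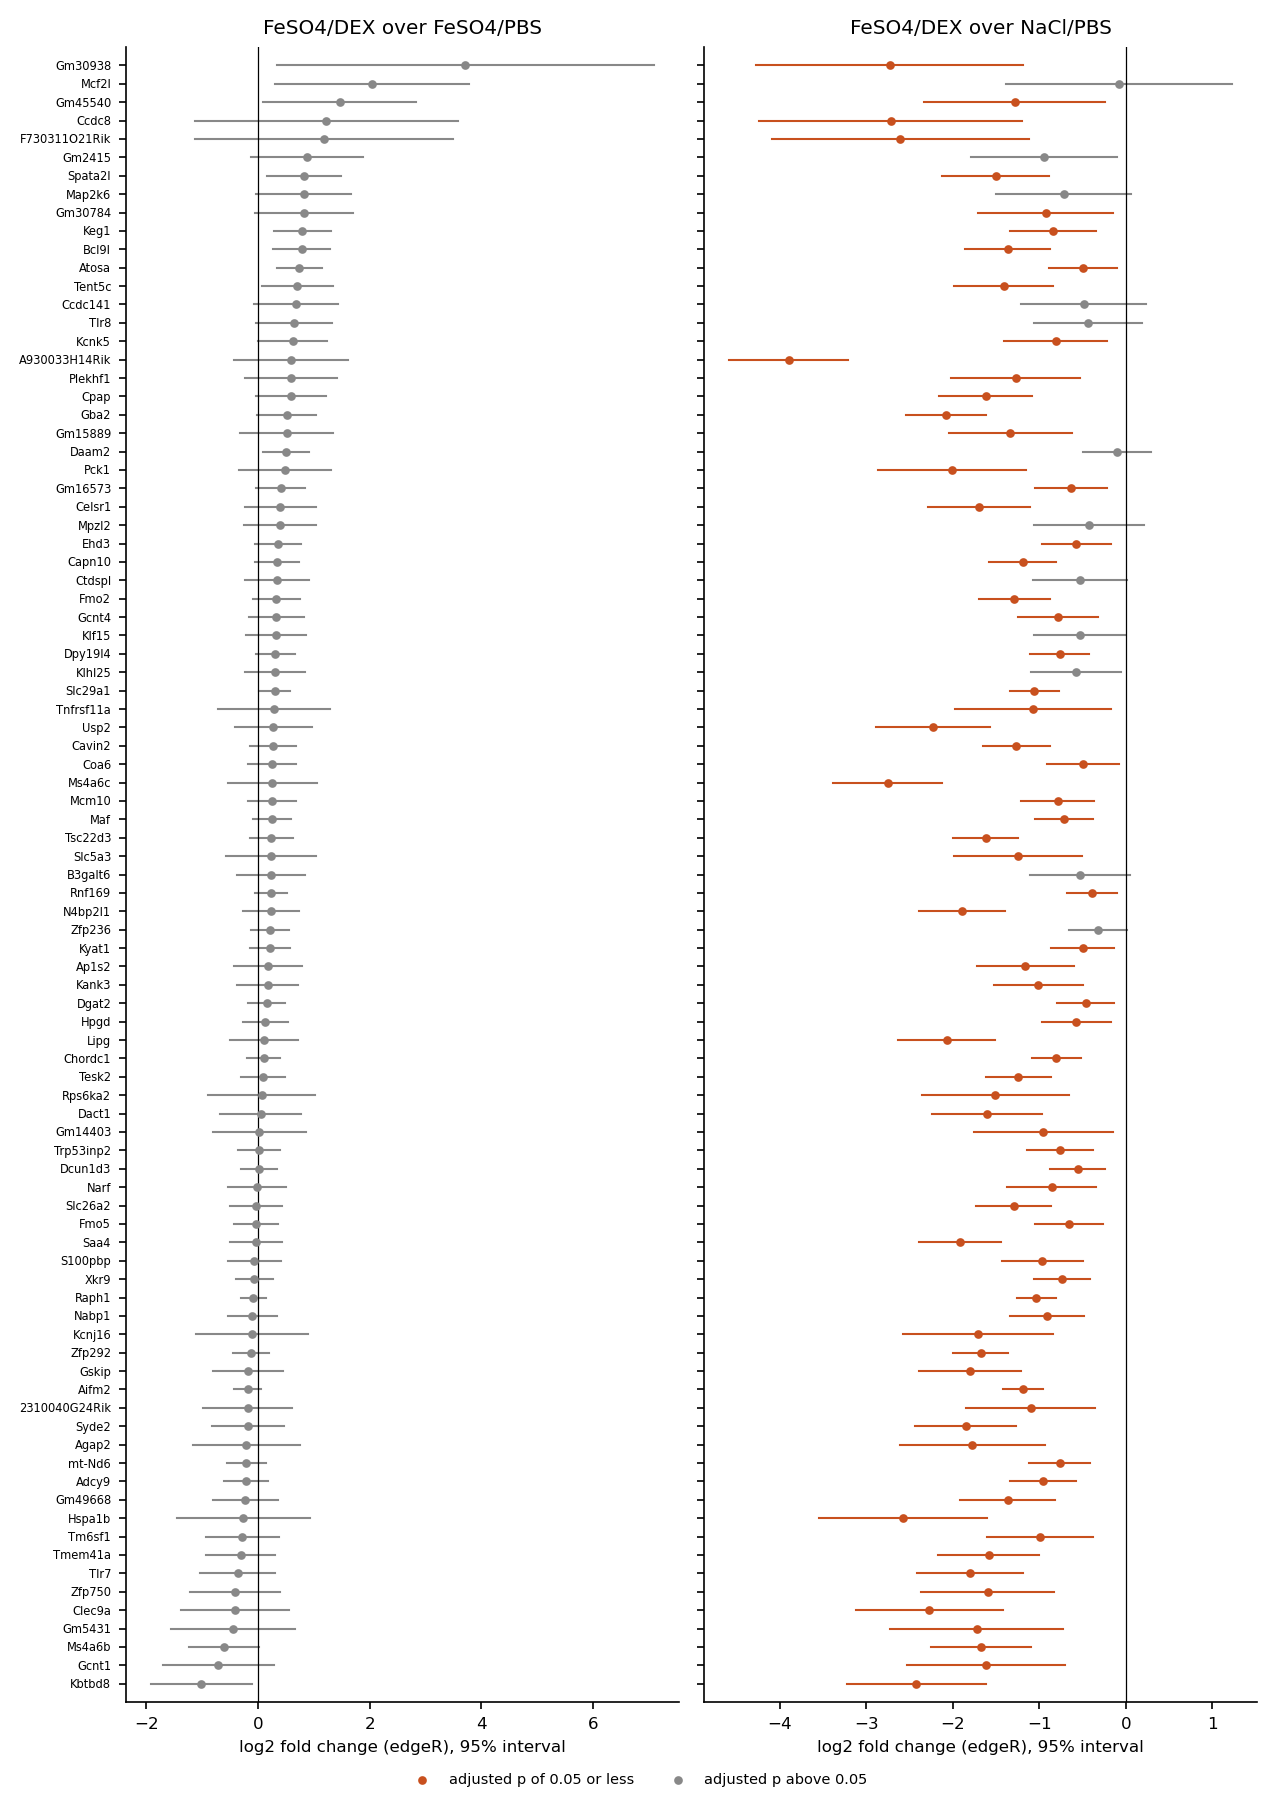
LFC of FeSO4/DEX over FeSO4/PBS mice (left) and over NaCl/PBS mice (right) for 89 of the 92 genes (rows, in the order of the left panel), with 95% intervals from edgeR. No interval on the left belongs to a called gene, and on the right 77 of those shown are called lower (red) and 12 are not (grey).

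Of the 92 genes, 13 were not called lower than NaCl/PBS in FeSO4/DEX mice. By their LFC they ranged from -0.95 in Gm2415 to -0.08 in Mcf2l. Among those with at least 5 CPM in NaCl/DEX mice, Daam2 had the largest p, and Mpzl2 (LFC -0.43, edgeR FDR 0.24), Ccdc141 (LFC -0.49, edgeR FDR 0.24), Map2k6 and Zfp236 (LFC -0.33, edgeR FDR 0.093) came next. Each of these 4 was called lower under some alternatives, 3 of 13 for Mpzl2, 2 for Ccdc141, 4 for Map2k6 and 2 for Zfp236, and with library size alone the LFC was -0.78 in Mpzl2 (edgeR FDR 0.038) and -0.84 in Ccdc141 (edgeR FDR 0.053). Mpzl2, an adhesion gene, had 61.8, 61.5 and 67.3 CPM in NaCl/PBS and 149.6, 131 and 149 in NaCl/DEX mice, with 17.6, 58.4 and 31.9 in FeSO4/PBS and 36.3, 45.8 and 58.4 in the FeSO4/DEX mice. Ccdc141 had 22.2, 18 and 26.3 CPM in NaCl/PBS and 48.6, 43.5 and 43.6 in NaCl/DEX mice, and after iron 3.27, 15 and 11.5 with PBS and 15, 13.2 and 18.7 with DEX. In both genes FeSO4/PBS mouse 1 was by far the lowest iron mouse. A p above the threshold does not show that these genes had returned to the control level, and the interval of Mpzl2 ran from -1.06 to 0.21.

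Among transcription factors, Klf15 was the member from 25 tested KLF and immediate-early factors, of which 4 were higher and 4 lower after DEX, and 22 higher and 2 lower after iron. Klf13, which is not a member, had 86.7 CPM in NaCl/PBS and 35.5 in FeSO4/PBS mice (edgeR FDR 1.5e-05). Of 32 hepatocyte transcription factors and nuclear receptors, 23 were lower and 7 higher after iron, but 5 were higher and 6 lower after DEX and none was a member. No member came from the lists of amino acid transporters (3 higher and 0 lower of 20 after DEX, 8 and 3 after iron), bile acid genes (2 and 2 of 21, 4 and 5), fatty acid oxidation (2 and 0 of 24, 6 and 3), insulin and IGF signaling (2 and 2 of 19, 8 and 4) or cytochrome P450 genes (3 and 0 of 26, 5 and 2). With 92 members among 13857 tested genes, lists of this size would hold few or none by number alone. The presence or absence of members on a list is therefore not read as a result.

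A promoter window (250 bases before to 50 after a start) was found in RefSeq for 69 of the 92 genes, in 100 windows, whose median GC content was 58%, beside 52.7% in all 32851 windows. The full GR response element, with half-sites GNACA and TGTNC set 3 bases apart, matched 1 of the 100 windows, that of Gm16573, and 0.475% of all windows. The GR half-site TGTTCT matched 17% of the windows, in 15 genes, and 19% of all windows. The E-box CACGTG matched 6% and 7.15%, in Ap1s2, Kcnk5, Klf15, Slc29a1, Tesk2 and Zfp292. The FOX motif TGTTTAC matched 1% and 3.65%, the nuclear receptor half-site AGGTCA 12% and 16.3%, the D-box TTATGTAA 1% and 0.938%, and the C/EBP motif TTGCGCAA 0% and 0.183%. Motifs added after the genes had been seen were the sterol response element TCACNCCAC at 2% and 1.24%, the heat shock pair GAANNTTC at 7% and 7.86%, and the cAMP response element TGACGTNA at 6% and 2.93%. Both strands were searched, the half-site motifs can overlap the full elements, and a match or its absence in so short a window is a description of letters only.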

How the data were processed

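Bulk RNAseq of 12 mouse livers, 3 per group, was analysed from the gene counts that the authors deposited, whole numbers for 55414 Ensembl genes without normalization. Per the submitters' processing notes and the study's methods, stranded mRNA libraries were checked with FastQC and mapped to mm39 with STAR 2.7.10b, which also gave the counts per gene. Symbols, positions and exon lengths came from GENCODE vM39 on GRCm39, and 665 genes had no symbol. The members and the gene lists were chosen with earlier results of these data known. Computed here were CPM values scaled by TMM factors over all 12 libraries for the selection, with 0.5 CPM added before taking log2 ratios of group means, and, for the tests, edgeR's quasi-likelihood fit with 4 group means, on the 13857 genes kept by filterByExpr, with a biological coefficient of variation of 0.169 and a prior count of 0.125. The software was DESeq2 1.42.0, edgeR 4.0.16 and limma 3.58.1 under R 4.3.3. Values beside tests are edgeR LFCs (log2 fold changes). Named are members on a gene list, the 20 in which the smaller of the DEX and iron changes was largest, at 5 CPM or more in NaCl/DEX, the 5 highest and 5 lowest in FeSO4/DEX over FeSO4/PBS, the 5 with the largest p against NaCl/PBS, the genes at the thresholds and the 5 most abundant, and other members were named for their function after their values were seen. Totals per library lay between 16335651 and 23827340. Where the text says that a count floor was used, it covers counting error only. The chi-square per gene between mice of a group was 18.3 to 89.5, above sampling noise, so each library counted as 1 mouse. The highest values, 89.5 and 71.4, were those of FeSO4/PBS mouse 1 against mice 2 and 3 of its group. The next was 37, between FeSO4/DEX mice 1 and 2. Alternatives were other scalings, pseudocounts, filters and thresholds, a replicate block, DESeq2 and leaving out each mouse, and the scalings of the gene lists and 3 motifs were added after seeing the data. The selection and the tests were checked on simulated data. Upstream windows were taken from RefSeq on GRCm38.p6 and matched by symbol. Single-gene results of 3 members are not reported here.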

Additional observations from a re-analysis of the deposited data

How the results depend on the processing

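The number of selected genes was 103 with library size alone, 98 with DESeq2 size factors, 84 with 1 CPM added, 92 without an expression floor and 94 to 110 with 1 mouse left out, but 22 at a log2 threshold of 1. With library size alone 69 of the 103, and with DESeq2 size factors 91 of the 98, were among the 92. The median level in FeSO4/DEX mice was -1.04 to -0.91 with 1 mouse left out, -0.93 with DESeq2 size factors, -0.84 with 1 CPM added and -1.27 with library size alone. Against FeSO4/PBS mice the count of genes called higher was 7 without a filter on low counts and 0 under every other alternative run, and the count called lower was 0 under all. Against NaCl/PBS mice the count called lower was 51 when the LFC had to pass 1, 68 to 79 with 1 mouse left out, 89 with library size alone, 86 without a filter and 62 of the 73 that kept 10 counts in every library, and DESeq2 called 79. Against NaCl/DEX mice it was 91 or 92 of 92, or 73 of 73. Of 24 called single-gene results, 20 kept the call under each alternative and 4 (Kyat1, Kcnk5 and Dgat2 among them) lost it on leaving out 1 mouse, and no direction was reversed. Calls against NaCl/PBS mice were gained by Klf15 and Map2k6 under 4 of 13 alternatives each, Mpzl2 under 3, Ccdc141 and Zfp236 under 2 each and Tlr8 under 1.

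Taken over all groups, replicate numbers showed no clear pairing of the mice. The correlation of deviations between same-numbered mice of different groups ran from -0.11 to 0.15, over 0.1 in 2 of 18 pairs, and between other mice from -0.20 to 0.16. With the replicate number as a block, 0 genes were called against FeSO4/PBS mice, 77 lower against NaCl/PBS and 92 lower against NaCl/DEX mice. Depth limits the 4 members with 3 counts or fewer in every FeSO4/PBS mouse.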
